A study of Mus musculus with 10 samples.

Results

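The proteins of the cytosolic ribosome were examined through the genes that encode them. A gene was taken when its symbol began with Rpl or Rps followed by a digit, or was Rplp0, Rplp1, Rplp2 or Rpsa, and kinases whose symbols begin with Rps6k were left out. The rule used symbols alone and found 93 of the 24062 gene symbols in the count tables. These were 77 genes for proteins of the subunits (46 of the large and 31 of the small subunit), 9 paralogs of such genes, 6 symbols marked as pseudogenes, and Rps19bp1, which encodes a protein that binds Rps19 and is not part of a subunit.

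The ribosome joins a small subunit, which reads the mRNA, to a large subunit, which forms the peptide bonds. Each subunit protein is needed in a single copy per ribosome, apart from the acidic proteins of the stalk, and the mRNAs of most of them begin with a run of pyrimidines that places their translation under growth signals. Their genes are short and highly expressed, many carry small nucleolar RNAs (snoRNAs) in their introns, and the mouse genome holds many processed pseudogenes copied from their mRNAs. In the intestine, dividing crypt cells make ribosomes at a high rate.

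Jejunum was collected at postnatal day 5 from WT mice (wild type, C57BL/6) and from KSR23 mice (C57BL/6), with 5 libraries in each group. KSR23 mice carry the R23 allele, an interleukin-23 (IL-23) cassette behind a floxed stop in the Rosa26 locus, and a K14-cre transgene, so that IL-23 is made in keratinocytes and in other cells in which the keratin 14 promoter is active. The study describes the libraries of a group as biological replicates. The labels do not say whether each came from a separate animal, and p-values measure the spread between these samples. Poly(A) RNA was copied from oligo-dT primers and amplified by PCR without molecular identifiers, and single-end reads of 75 bases were counted per gene.

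The libraries held 25.5 to 32.0 M counts in WT and 31.2 to 60.9 M in KSR23 (M stands for 1e6). Il12b, a subunit of IL-23, had 0 to 5 counts in the WT libraries and 9 to 40 in KSR23. In both groups replicates 4 and 5 lay between the other libraries at most genes. Among 85 members with 10 or more counts in every library, WT replicate 4 was the highest or lowest of its group for 5.88%, WT replicate 5 for 14.1%, KSR23 replicate 4 for 3.53% and KSR23 replicate 5 for 0%, and over 12380 genes these 4 libraries were at an end for 11.7% to 20.7%. Whether replicates 4 and 5 are samples independent of replicates 1 to 3 was not tested. If they are not, an n of 5 is too large and the p-values too small, so results are also given for replicates 1 to 3 alone. Markers of other cells were read against the 9.73% of all tested genes called higher and the 8.76% called lower in KSR23 by the test described below. The summed level of 8 enteric neuron and glia markers was 87.9 to 107 CPM (counts per M of scaled library total) in WT and 33.4 to 47.1 in KSR23, with 1 called higher and 1 lower. Their log2 fold changes were uneven, from -6.33 to 0.94 with a median of -0.51, 6 negative and 2 positive. How much of the fall in this sum came from single markers was not tested. All 10 enterocyte markers had more than 3 counts in some library, 1 of them higher and 3 lower in KSR23, with sums of 95192 to 202087 CPM in WT and 60761 to 110299 in KSR23. Of 10 markers of cycling crypt cells 3 were called higher and none lower, with sums of 700.0 to 1003 CPM in WT and 681 to 1171 in KSR23, and all 5 tested acinar markers were called lower, with sums of 20.3 to 119.9 CPM in WT and 6.19 to 15.9 in KSR23. Lymphocyte markers (1 higher and 1 lower of 10), myeloid markers (2 and 1 of 8) and smooth muscle markers (0 and 1 of 8) had sums that overlapped between the groups. Fewer cells of a type and less RNA per cell cannot be told apart in these bulk samples, and the part of cell composition in the results on ribosomal proteins was not tested.

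Reads that aligned to more than 1 place entered no gene, so the sequences decide how much of each member could be counted. For each member, the share of the 75-base stretches of its main transcript that also occur in a gene elsewhere was computed from the GENCODE M21 annotation (build mm10). Among the 77 subunit protein genes the median share was 47.5%, with a range of 0% to 98.5%. For 34 of them at least 50% of stretches were shared, for 14 under 20%, and for 2 (Rps3 among them) none. At least 1 pseudogene shared sequence with 74 of the 77, and the number of genes sharing sequence reached 64 for a single member.

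The clearest case was Rps27, a zinc-binding protein of the small subunit, with its paralogs Rps27rt, whose symbol marks a retrogene, and Rps27l, which p53 is known to induce. The first 150 coding bases of the 3 genes, from GENCODE M21 transcripts on build mm10, are shown because they set which reads could be assigned. Capitals mark bases that differ from Rps27. The genomic spans are chr3:90213010-90213615 on the minus strand for Rps27, chr9:114982558-114982707 on the minus strand for Rps27rt and chr9:66946175-66947621 on the plus strand for Rps27l, and introns are left out.
Rps27: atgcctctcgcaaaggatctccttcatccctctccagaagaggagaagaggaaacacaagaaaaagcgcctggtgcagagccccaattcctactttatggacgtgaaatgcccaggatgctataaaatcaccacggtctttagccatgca
Rps27rt: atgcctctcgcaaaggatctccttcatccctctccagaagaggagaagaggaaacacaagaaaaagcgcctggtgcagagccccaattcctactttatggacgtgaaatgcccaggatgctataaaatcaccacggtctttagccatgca
Rps27l: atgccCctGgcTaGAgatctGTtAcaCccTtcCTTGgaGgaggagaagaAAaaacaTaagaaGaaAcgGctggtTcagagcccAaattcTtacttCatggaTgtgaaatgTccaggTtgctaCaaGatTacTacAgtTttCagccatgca

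Rps27 and Rps27rt were identical over all 255 coding bases, whereas Rps27l differed from Rps27 at 61 of them, 35 of which lie in the stretch above. Shared stretches made up 98.5% of the Rps27 transcript, 90.3% of Rps27rt and 12.0% of Rps27l. Counts of Rps27 were 48, 31, 46, 46 and 42 in the WT libraries, in the order of their numbers, and 73, 33, 44, 11 and 26 in KSR23, Rps27rt had 0 in every library, and Rps27l had 7264 to 12574 counts in WT and 9392 to 12916 in KSR23. Per kilobase of transcript the WT level was 4.16 ± 0.670 CPM for Rps27 and 714 ± 155 CPM for Rps27l (SD, n = 5). Rps27l, with the smallest shared part, thus had the most counts, and the order of the other two was not that of their shared parts. How much of the difference in counts came from shared sequence was not tested.

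**Figure D1:**
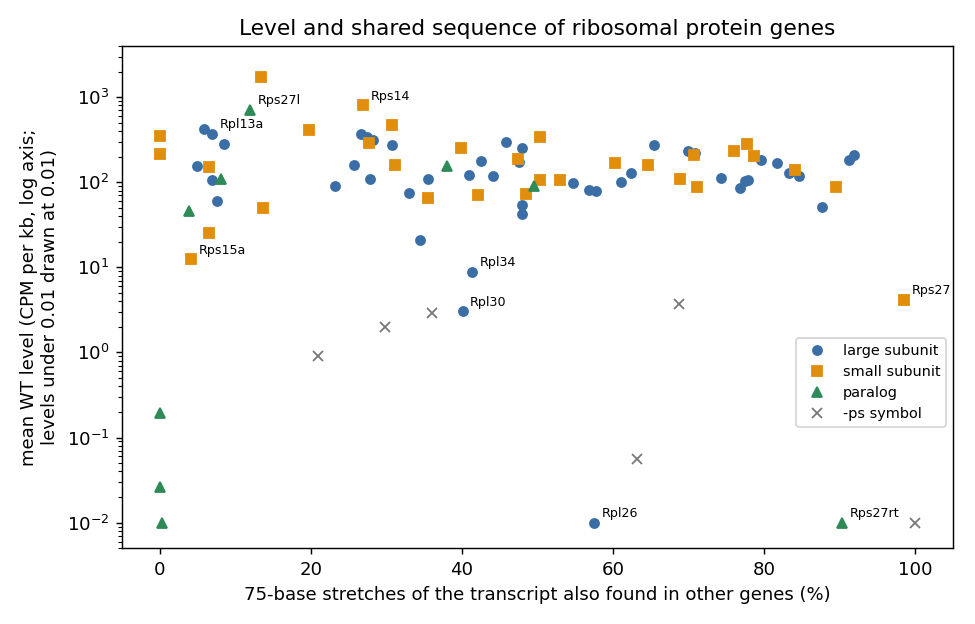
Mean WT level of each member per kilobase of transcript (CPM per kb, log axis) against the share of its 75-base stretches found in other genes (percent), with 1 point a gene and symbols for its class. Rps27 (98.5% shared) lies at 4.16 CPM per kb and Rps27l (12.0%) at 714, and most subunit protein genes lie between 20 and 500 at any share.

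Most members did not follow this pattern. Rpl10 and Rpl9, with 91.9% and 91.3% shared, stood at 208 and 181 CPM per kb in WT. Of the 77 subunit protein genes, 70 had a WT level between 20 and 500 CPM per kb, and Spearman's rho between that level and the shared percentage was -0.18 across the 77 genes, a description in which all genes come from the same libraries. The median level was 184 CPM per kb for genes with under 20% shared and 124 for those with 50% or more. Rpl26 had 0 counts in all 10 libraries although 57.5% of its stretches were shared. A count of 0 allows up to 3 counts, which is 0.0427 to 0.119 CPM. Rpl30 and Rpl34 stood at 3.07 and 8.88 CPM per kb in WT with 40.1% and 41.4% shared. Rps15a, at 12.4 with 4.17% shared, had 63.7 ± 11.8 CPM (SD, n = 5), and its level per kb is low because the transcript used has 5130 nucleotides, of which 390 are coding. Rpl9, Rpl10, Rpl30, Rpl34 and Rps15a were chosen after their values were seen. The shared percentage counts exact copies in annotated genes only, and what kept Rpl26, Rpl30 and Rpl34 low was not tested.

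Some pseudogene symbols and paralogs were also near 0. Rpl34-ps1, with every stretch shared, and Rpl10l had no counts, and Rpl31-ps12 and Rpl39l reached 3 and 2 counts in their highest library. Rpl10l and Rpl39l are known as testis paralogs of Rpl10 and Rpl39. With Rpl26 and Rps27rt these were the 6 members with under 5 counts in every library, and the other 87 entered the test.

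Members together took a small share of all counts. The share in the WT libraries, in the order of their numbers, was 1.30%, 1.08%, 1.27%, 1.16% and 1.32%, and it was 0.798%, 1.18%, 1.05%, 0.906% and 0.970% in KSR23. The means were 1.23% ± 0.105 and 0.980% ± 0.144 (SD, n = 5 each). KSR23 replicate 2 lay within the WT range and the other KSR23 libraries lay below it. Counting error is small beside this spread, since the 95% Wilson interval reached at most 0.00438 percentage points to each side. Without the 20 most abundant genes of either group in the denominator, the means were 1.66% ± 0.209 and 1.34% ± 0.210 (SD, n = 5), with WT libraries from 1.36% to 1.82% and KSR23 libraries from 1.04% to 1.57%, so the groups overlapped more widely.

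The reads that could not be assigned also differed. Alignment records of reads with more than 1 alignment were 23.2% to 26.5% of all records in WT and 20.3% to 23.0% in KSR23, and the groups did not overlap. The means were 25.2% ± 1.37 and 22.0% ± 1.19 (SD, n = 5 each), and the two-sided exact permutation test gave p = 0.00794, the smallest possible for 5 against 5. A read with several alignments gives several records, so this is not a share of reads, and it covers every repeated sequence of the genome. In replicates 1 to 3 the difference was -3.10 percentage points, where 3 against 3 cannot go below p = 0.1 in the exact permutation test. How many of these records came from ribosomal proteins is not given by the counts.

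To determine which members differed between KSR23 and WT, 17632 genes were fitted in edgeR, each with at least 5 counts in some library. A gene is called when its Benjamini-Hochberg adjusted p over all genes in the likelihood ratio test, the test of the study, is under 0.05. Of the 87 members tested, 4 were called lower in KSR23 and 0 higher, where 18.5% of all tested genes were called, 8.76% lower and 9.73% higher. The share of members called lower, 4.6%, was thus below that of all genes. Rpl13a, Rps25 and Rpl37a, which were among the 4, are described below. The quasi-likelihood F test called 3 lower and 0 higher (6.91% and 8.47% of all genes), and DESeq2 called 5 lower and 0 higher (9.95% and 10.7%). At an unadjusted p under 0.05 there were 5 lower and 0 higher members, where 14.0% and 15.9% of all genes passed. The median log2 fold change over the 87 members was -0.17, beside 0.03 over all tested genes. Fold changes lay within 0.5 of 0 on the log2 scale for 78 members, and 66 of the 87 were negative. In replicates 1 to 3 alone no member was called by either test of edgeR, which called 3.36% (likelihood ratio) and 0.812% (quasi-likelihood) of all genes, and the median was -0.12.

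These directions depended on transcript length. Across 12321 genes with a mean above 1 CPM, the log2 fold change rose with the length of the transcript (Spearman's rho 0.35 across genes, which are not independent), and across 83 members rho was 0.37. Genes under 1000 nucleotides (970 genes) had a median of -0.60 and genes of 3000 or more (5508) of 0.31. The 63 members under 1000 nucleotides had a median of -0.22, with 3 of them called, where 36.8% of all genes of that length were called in either direction. When the trend with length was removed from each library before the test, an alternative added after seeing the data, 4 members were called higher and 0 lower (7.26% of all genes were called higher), the median became 0.35, and 77 of the 87 fold changes were positive. The 4 were Rpl10, Rpl34, Rpl38 and Rps12. The correction takes out any length trend, whatever its origin, and whether the trend came from the tissue or from the libraries was not tested. Neither the direction of the members as a group nor any of the 4 calls of members lower in KSR23 held with this correction.

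**Figure D2:**
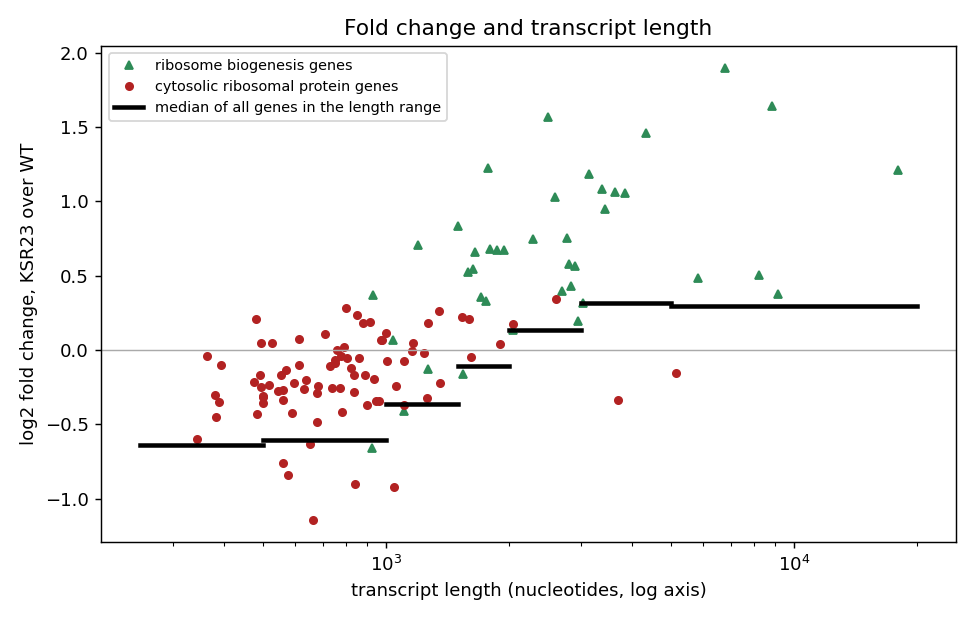
Log2 fold change (KSR23 over WT) against transcript length (nucleotides, log axis) for members with a mean above 1 CPM (circles) and ribosome biogenesis genes (triangles), with bars at the median of all genes in each length range. The bars rise from -0.64 under 500 nucleotides to about 0.30 above 3000, and most members lie above the bar of their length.

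Rpl13a, a protein of the large subunit that also belongs to a complex known to repress translation of inflammatory mRNAs, fell in KSR23. Its CPM were 392, 303, 488, 331 and 443 in WT and 135, 222, 292, 163 and 222 in KSR23. The groups did not overlap, although KSR23 replicate 3 at 292 came close to WT replicate 2 at 303. A KSR23 range wholly below the WT range was found for 6.99% of all tested genes. The log2 fold change was -0.92 (SE 0.28, edgeR adjusted p = 0.00973, and 0.0232 by the quasi-likelihood F test). It lost the call in replicates 1 to 3 (log2 fold change -0.83, edgeR adjusted p = 0.51), with the length correction (log2 fold change -0.50) and without KSR23 replicate 4.

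Rpl13a lies on chromosome 7 from 45125558 to 45128761, on the minus strand (build mm10). Its introns hold 4 snoRNA genes, and 35.4% of its exon sequence overlaps other annotated genes, among them the protein-coding Gm45713. The strand setting of the counting was not given in the sources used here.

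Rps25, a small-subunit protein needed by some viral internal ribosome entry sites, had 220.4, 147, 226, 172 and 218 CPM in WT and 77.2, 88.9, 152, 102 and 128 in KSR23. Only KSR23 replicate 3 reached above the lowest WT library. The log2 fold change was -0.84 (SE 0.27, edgeR adjusted p = 0.0168, and 0.0273 by the quasi-likelihood F test). The call was lost without WT replicate 5 or KSR23 replicate 1, 2 or 4, in replicates 1 to 3 (log2 fold change -0.87, edgeR adjusted p = 0.49) and with the length correction (log2 fold change -0.23). Of its exon sequence 24.8% overlaps Trappc4 and Ccdc84, which had log2 fold changes of -0.39 and -0.31 (edgeR adjusted p = 0.363 and 0.799).

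Rpl37a, a zinc-binding protein of the large subunit, was the least certain of these 3. It had 191, 153, 289.6, 170.4 and 234 CPM in WT and 82.6, 134, 161, 105 and 129 in KSR23, with KSR23 replicate 3 above the lowest WT library. The log2 fold change was -0.76 (SE 0.28), with edgeR adjusted p = 0.0421, or 0.0512 by quasi-likelihood. In replicates 1 to 3 the log2 fold change was -0.71 (edgeR adjusted p = 0.628), and with the length correction -0.13. Of the 10 fits that each left out 1 library it was called in 2 (without WT replicate 2 or KSR23 replicate 3), Rps25 in 6 and Rpl13a in 9.

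**Figure D3:**
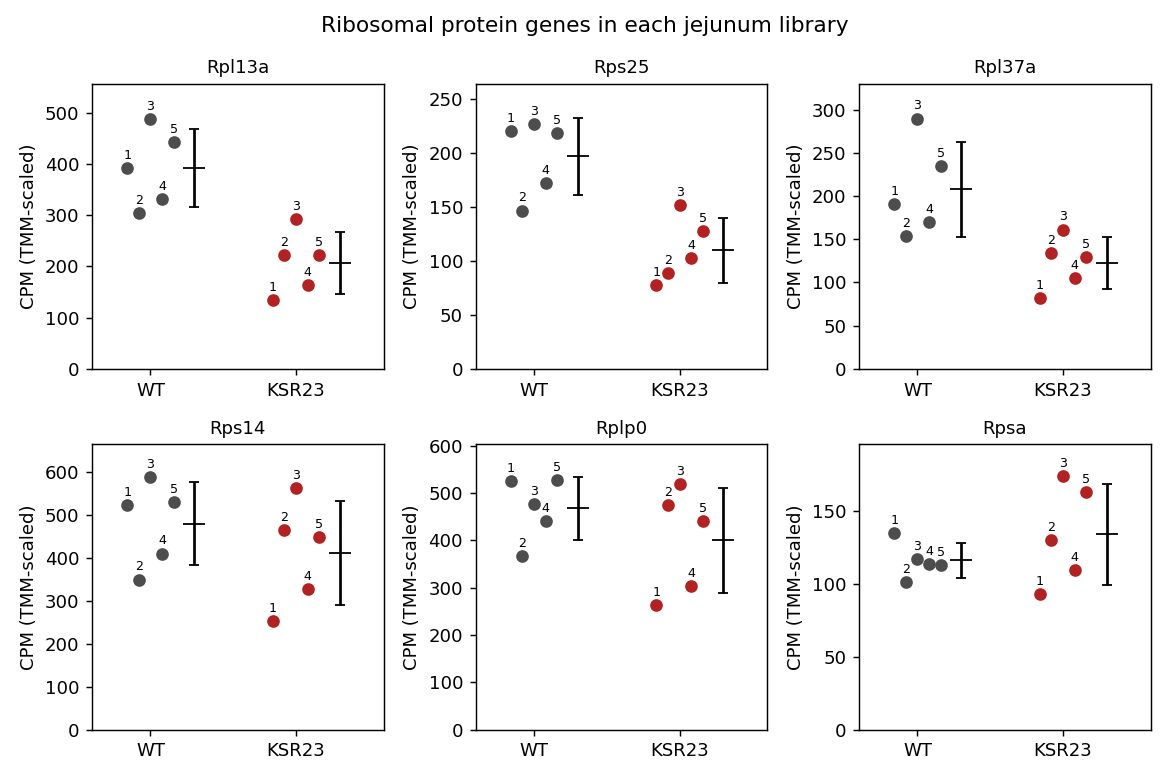
CPM in each library (numbers are replicates) of the called members Rpl13a, Rps25 and Rpl37a and, for comparison, of Rps14, Rplp0 and Rpsa, with the mean and SD of each group (n = 5) to the right of the points. Rpl13a does not overlap between the groups, Rps25 and Rpl37a overlap through KSR23 replicate 3, and Rps14, Rplp0 and Rpsa overlap widely.

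Promoters of called and uncalled members were set side by side. RefSeq promoter entries (GRCm38.p6) were found for 67 of the 93 members, among them 57 of the 77 subunit protein genes. The stretches from 40 bases before to 20 after the annotated start are given for the called members Rpl13a, Rps25 and Rpl37a and for Rpl4, which had a positive fold change, with capitals marking the motif CTTTCC, a short pyrimidine-rich word. They lie at chr7:45128726-45128785 (minus strand), chr9:44407674-44407733 (plus), chr1:72711220-72711279 (plus) and chr9:64173347-64173406 (plus).
Rpl13a: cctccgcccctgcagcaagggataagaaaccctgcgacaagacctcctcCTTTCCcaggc
Rps25: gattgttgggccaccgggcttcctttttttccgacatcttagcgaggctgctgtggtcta
Rpl37a: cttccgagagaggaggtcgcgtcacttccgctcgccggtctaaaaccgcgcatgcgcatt
Rpl4: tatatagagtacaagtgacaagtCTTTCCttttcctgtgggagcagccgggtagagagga

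In the stretches shown, CTTTCC stood in 1 of these 3 called members and in the uncalled Rpl4. The exact word misses other pyrimidine runs, and the Rps25 stretch holds a longer one. The Rpl37a stretch ends at 72711279, before the start of that gene in GENCODE M21 at 72711290. The presence of the word therefore does not tell which members begin with a run of pyrimidines. Shares were also taken over whole promoter entries, which are longer than the stretches shown. On either strand, CTTTCC was in 49.3% of the entries of the 57 subunit protein genes, of which some have several. It was in 26.6% of all 32851 promoter entries of that same full length. Within 20 bases of the start on the gene's strand it was in 14.9% and 1.95%. In whole entries CCGGAAG, the core of sites for Ets factors such as GABP, was in 37.3% and 8.86%. AAGATGGC, the core of the YY1 site, was in 10.4% and 2.75% of whole entries. A match is a description of letters and not a binding site.

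Other abundant members overlapped between the groups. Rps14, the paralog Rps27l, Rps29 and Rpl32 were among the 5 members with the highest level per kilobase in WT. Their levels there were 806 ± 163, 714 ± 155, 472 ± 119 and 424 ± 68.5 CPM per kb (SD, n = 5). Rps14 and Rps27l, and Rps29 and Rpl32, did not differ beyond their spread. In KSR23 the mean levels of these genes were 690.3, 575, 371 and 360.1 CPM per kb, in the same order. The log2 fold changes of Rps14, Rps27l, Rps29 and Rpl32 were -0.22, -0.31, -0.35 and -0.23, with edgeR adjusted p between 0.46 and 0.652.

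The stalk of the large subunit, to which elongation factors bind, is built of Rplp0 with Rplp1 and Rplp2. None of the 3 was called. Rplp0 had 527, 368, 477, 440.3 and 528 CPM in WT and 263, 475, 519, 304 and 441 in KSR23 (log2 fold change -0.22, SE 0.27). KSR23 replicates 1 and 4 were low and the others lay within the WT range. Rpsa, a small-subunit protein also known as a laminin receptor, had a log2 fold change of 0.21 (SE 0.26), and its CPM were 101 to 135 in WT and 93.0 to 174 in KSR23.

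Of the 6 paralogs tested none was called, and 3 had a positive and 3 a negative fold change, though the sign changed under some alternatives for Rpl22l1, Rpl36al, Rps4l and Rps27l. Rpl7l1 (log2 fold change 0.34, SE 0.28), Rpl36al (0.05, SE 0.31), Rps4l (0.02, SE 0.65), Rpl22l1 (-0.17, SE 0.32) and Rps27l (-0.31, SE 0.29) were well counted. Rpl3l, the paralog of striated muscle, had 0 to 12 counts per library (-1.73, SE 1.02, edgeR adjusted p = 0.245). Their coding sequences were identical to those of their partners at 52.8% (Rpl7l1), 66.9% (Rpl22l1), 73.2% (Rpl3l), 76.1% (Rps27l), 84.8% (Rpl10l), 85.3% (Rpl39l) and 87.9% (Rpl36al) of aligned positions, and their shared stretches made up 0% to 49.6% of the transcript. Rps4l is annotated as a transcribed processed pseudogene and had no coding sequence to align. The 4 pseudogenes tested were all negative, none called, and Rps15a-ps6 had 15 to 45 counts per library (log2 fold change -1.04, SE 0.41, edgeR adjusted p = 0.0623). DESeq2, library totals alone, the filter of 5 counts in every library and the GC correction called it lower.

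The libraries of a group were not alike. Among the 85 members with 10 or more counts in every library, KSR23 replicate 1 was the lowest of its group for 75 and WT replicate 2 for 70, and WT replicate 3 was the highest for 59. The ratio of the highest to the lowest library had a median of 1.55 in WT and 2.12 in KSR23. The median deviation of subunit protein genes from their mean over libraries ran from -0.23 to 0.40 on the log2 scale in WT and from -0.67 (replicate 1) to 0.34 in KSR23. Without KSR23 replicate 1 the median log2 fold change of members was -0.02.

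A small set of members ran against this order. For 6 of the 85 the highest library exceeded the lowest more than 3-fold in both groups, and in all 6 the lowest were WT replicate 1 and KSR23 replicate 3. These were Rpl13, Rps2, Rpl36, Rplp2, Rps4l and Rps19bp1, named after their values were seen apart from the last 2. Rpl13, a large-subunit protein, had 8.85, 204, 303, 128 and 64.5 CPM in WT and 159.9, 179, 10.5, 117 and 63.3 in KSR23. Rps2, at the mRNA entrance of the small subunit, had 16.1, 123, 175, 76.7 and 47.5 CPM in WT and 131, 143, 25.7, 110.3 and 63.1 in KSR23. Both groups thus held libraries at either end, and neither gene was called (edgeR adjusted p = 0.767 and 0.923). Rps19bp1 had 2.11, 24.5, 40.5, 15.8 and 9.80 CPM in WT and 16.3, 13.2, 1.63, 13.8 and 4.57 in KSR23 (log2 fold change -0.91, SE 0.69, edgeR adjusted p = 0.401).

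**Figure D4:**
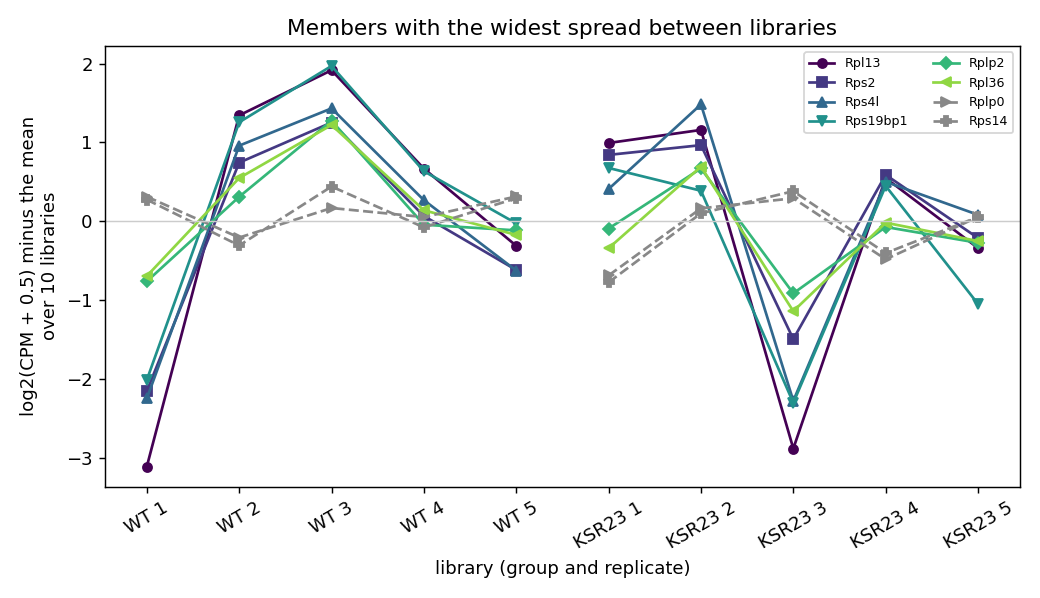
Log2(CPM + 0.5) minus the mean over 10 libraries for the 6 members with the widest spread (solid lines) and for Rplp0 and Rps14 (dashed), by library. The solid lines drop in WT replicate 1 and KSR23 replicate 3, where the dashed lines are above their mean.

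GC content moved with these libraries. The median GC content was 56.8% in the 6 members and 50.7% in the other 79 of the 85. Over 12321 genes the deviation of a gene from its group median correlated negatively with GC content in WT replicates 1 and 5 and in KSR23 replicates 3 and 5 (Spearman's rho -0.31 to -0.32 across genes) and positively in the other 6 libraries (0.12 to 0.28), and over 83 members the signs were the same (-0.35 to -0.21 and 0.13 to 0.30). With GC content corrected in each library 5 members were called lower (10.1% of all genes) and the median was -0.28, and with WT replicate 1 and KSR23 replicate 3 both left out these were 4 and -0.30. Both alternatives were added after seeing the data.

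Some subunit components have symbols outside the rule. Of these, Fau, which encodes a ribosomal protein fused to a ubiquitin-like sequence, and Gnb2l1, the scaffold protein of the small subunit also called Rack1, were not called. Their log2 fold changes were -0.10 and 0.58. Gnb2l1 had an unadjusted p under 0.05 in the likelihood ratio test, which 15.9% of all genes reached in the higher direction. The member Rps27a, a ribosomal protein fused to ubiquitin, was not called either (-0.20).

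The proteins of the mitochondrial ribosome, which translates the mRNAs of the mitochondrial genome, were 77 genes, all of them tested. Of these 7 were called lower and 0 higher, and the median log2 fold change was -0.32. The calls were 9.09% of the list, where 8.76% of all genes were called lower and 18.5% in either direction. The quasi-likelihood F test called 7 lower and 0 higher (6.91% and 8.47% of all genes). At an unadjusted p under 0.05 there were 14 lower and 1 higher (14.0% and 15.9% of all genes). Mrpl23 fell from 30.7 ± 3.51 to 12.4 ± 3.74 CPM (SD, n = 5 each; log2 fold change -1.32, edgeR adjusted p = 0.000159) and Mrps16 from 85.5 ± 12.3 to 40.2 ± 12.0 CPM (log2 fold change -1.09, edgeR adjusted p = 0.00183), without overlap in either gene. Mrps33, Mrpl48, Mrpl51 and Mrpl42 followed at -0.93 to -0.82. With the length correction 4 were called lower and the median was -0.05, in replicates 1 to 3 none was called, and without WT replicate 4 or 5 or KSR23 replicate 4 the count was 2.

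The next list held genes for making ribosomes. Of 40 ribosome biogenesis genes, 10 were called higher and 0 lower with a background of 18.5% of all genes called, and the median log2 fold change was 0.62. The quasi-likelihood F test called 9 higher and 0 lower (8.47% and 6.91% of all genes), and at an unadjusted p under 0.05 there were 16 higher and 0 lower (15.9% and 14.0% of all genes). Heatr1, a component of the complex that processes the small-subunit rRNA, had 8.33, 5.76, 3.08, 7.55 and 7.58 CPM in WT and 15.5, 28.1, 29.3, 16.4 and 30.9 in KSR23, without overlap (log2 fold change 1.89, SE 0.36, edgeR adjusted p = 8.6e-06). Utp20, of the same complex, rose by 1.64 (SE 0.33) and Rrp12, which acts in subunit export, by 1.46 (SE 0.34) on the log2 scale. Mdn1 and Ftsj3, which act on the large subunit, rose by 1.21 and 1.18. Bop1, also of the large subunit, rose by 1.57 (SE 0.57, edgeR adjusted p = 0.0404), but the quasi-likelihood F test gave 0.0875, and its KSR23 libraries ran from 10.3 CPM in replicate 3 to 137 in replicate 2.

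The 10 called biogenesis genes have transcripts of 2491 to 17959 nucleotides, a range in which the median of all genes was 0.13 to 0.31. With the length correction 8 of the 40 were called higher and the list's median was 0.69, a positive value as for the ribosomal protein genes themselves under that correction (0.35). In replicates 1 to 3 the likelihood ratio test called 1 and the quasi-likelihood F test 0. Without KSR23 replicate 1 the count was 17.

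**Figure D5:**
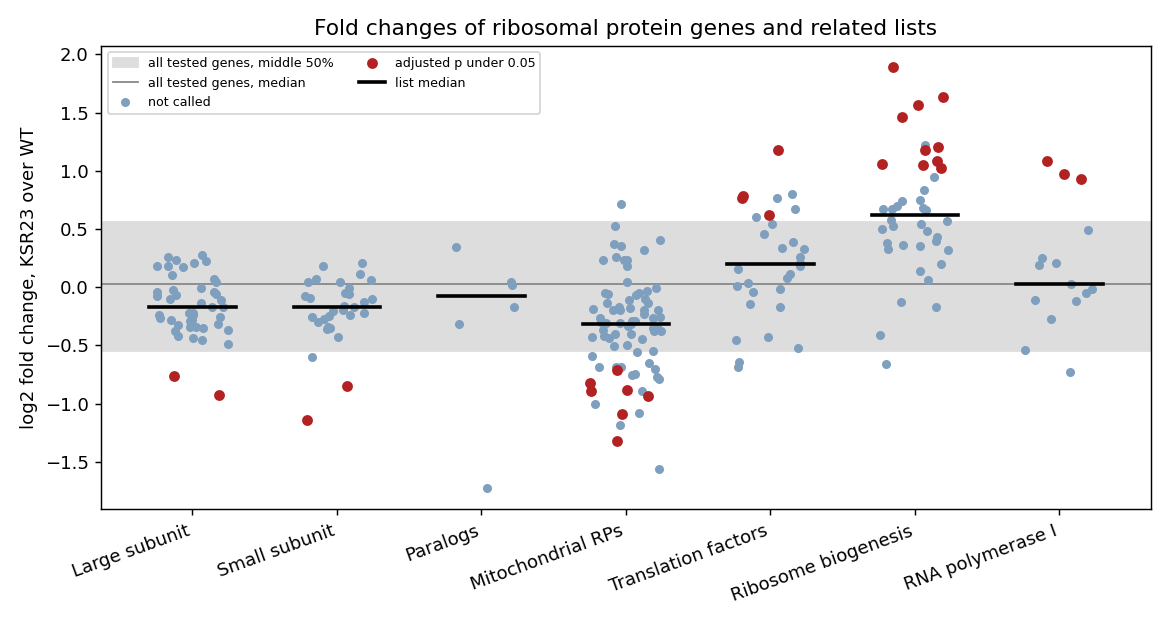
Log2 fold change (KSR23 over WT) of each tested gene in 7 lists, with red points for an adjusted p under 0.05, bars at list medians and the grey band for the middle 50% of all tested genes. Medians are -0.17 for both subunits, -0.32 for mitochondrial ribosomal proteins and 0.62 for ribosome biogenesis genes.

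Of 30 translation factor genes 4 were called higher and 0 lower (median log2 fold change 0.20), by both tests of edgeR. This is 13.3% of the list, where 9.73% of all genes were called higher and 18.5% in either direction. Eef2, which moves the ribosome along the mRNA, had 248, 228, 181, 242 and 241 CPM in WT and 271, 453, 457, 320.2 and 441 in KSR23 (log2 fold change 0.77, SE 0.25, edgeR adjusted p = 0.0179), and the groups did not overlap. Eif2s3x, Eif4b and Eif3a, all of translation initiation, rose by 1.18, 0.79 and 0.62. None of the 4 was called with the length correction or in replicates 1 to 3, and only Eif2s3x was called without WT replicate 3, WT replicate 5 or KSR23 replicate 5.

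RNA polymerase I transcribes the large rRNA precursor. Its list held 15 genes, 3 called higher and 0 lower (median 0.03). This is 20.0% of the list, where 9.73% of all genes were called higher and 18.5% in either direction. The 3 had log2 fold changes of 1.09 (Polr1b), 0.97 (Rrn3) and 0.93 (Polr1a), and none was called with the length correction or in replicates 1 to 3, while the quasi-likelihood F test called 2 higher. Of 20 regulators of ribosomal gene expression 4 were called higher and 1 lower, where 9.73% and 8.76% of all genes were called. The quasi-likelihood F test called 2 higher and 1 lower, and in replicates 1 to 3 none was called by the likelihood ratio test. Myc, a transcription factor known to drive ribosome production, had 2.57, 18.3, 12.6, 9.82 and 4.51 CPM in WT and 34.7, 74.9, 4.21, 44.9 and 32.8 in KSR23 (log2 fold change 2.0, SE 0.63, edgeR adjusted p = 0.0168). KSR23 replicate 3 lay within the WT range, and the quasi-likelihood F test gave 0.0581. Mxd1, Tsc2 and Max rose by 1.66, 0.89 and 0.75 and Mxi1 fell by 0.97, and Mxd1 was also not called by the quasi-likelihood F test (adjusted p = 0.0663).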

How the data were processed

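Deposited counts per gene symbol were used for 10 libraries, 5 a group, grouped by their titles. According to the submitters' processing notes the authors used TopHat2 2.1.0, HTSeq 0.6.1p1, edgeR 3.18.1, FastQC and build mm10. The deposited counts were whole numbers, neither normalized nor filtered. Only reads strictly inside 1 gene's models and aligned once were counted, which lowers genes with near copies.

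The counts were scaled with TMM and fitted in edgeR 4.0.16 (R 4.3.3) with the group as the only term. A gene was kept (17632 genes) if any library had at least 5 counts. The likelihood ratio test was the main test, and p-values were adjusted over all genes. The fit was checked on simulated counts. CPM use TMM-scaled totals, levels per kb the main GENCODE M21 transcript, found for 94.5% of symbols. DESeq2 1.42.0, RLE factors, library totals, other filters, a replicate block, corrections for GC and length, and left-out libraries were alternatives. The GC and length corrections took a smooth curve of each library's deviation as an offset.

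Members, lists and tests were chosen with earlier results of these data known. Named genes were the called members (up to 12 in each direction), the paralogs, Rps19bp1, the 5 members with the most counts per kb in WT, members under 5 counts in every library, and up to 6 called genes a direction of each other list. Some genes that these rules take are not reported here, though counts over members and lists include them. Same-numbered libraries were not treated as pairs.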

Additional observations from a re-analysis of the deposited data

How the results depend on the processing

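No member was called higher in 21 of the 22 alternative fits, and 4 were with the length correction. The count called lower was 4 in the main fit, 0 in replicates 1 to 3 by either test of edgeR and 0 with the length correction, and 2 among members with under 20% shared stretches. It was 1 to 5 when 1 library was left out (1 without KSR23 replicate 4, and 2 without WT replicate 5, KSR23 replicate 1 or KSR23 replicate 2). The median log2 fold change of members was -0.28 to -0.02 without 1 library and became 0.35 with the length correction. Translation factor calls (4) became 0 in replicates 1 to 3 by either test and with the length correction, 1 with the GC correction, 2 (1 higher, Eef2, and 1 lower, Eif3k) without WT replicate 1 and KSR23 replicate 3, and 1 to 6 without 1 library. Ribosome biogenesis calls (10) became 1 in replicates 1 to 3, or 0 by the quasi-likelihood F test, and 8 to 17 without 1 library. Mitochondrial ribosomal protein calls (7) became 12 by DESeq2, 17 with library totals alone, 0 in replicates 1 to 3 by either test, 14 without WT replicate 1 and KSR23 replicate 3, 4 with the length correction, and 2 to 15 without 1 library. Calls over all genes (3261) became 579 in replicates 1 to 3, or 140 by the quasi-likelihood F test, and 2370 to 3802 without 1 library. The difference in records with more than 1 alignment was -3.10 percentage points in replicates 1 to 3 (exact permutation p = 0.1) and -3.67 to -2.73 without 1 library. The difference in the share of counts in members was -0.30 to -0.20 percentage points without 1 library.

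With the replicate number as a block, 2 members were called lower (Rpl13a among them, whereas edgeR adjusted p was 0.051 for Rps25 and 0.0968 for Rpl37a) and 0 higher, with 0 translation factors, 5 biogenesis genes, 2 mitochondrial ribosomal proteins and 2202 genes in all. Deviations of same-numbered libraries correlated at -0.55, 0.25, -0.46, 0.11 and 0.22, and 1 of 10 libraries matched its own number best, so the numbers were not taken to pair samples. Over the 14 tested members that the rule for named genes takes, 260 of 307 gene-by-setting results kept direction and call, 28 kept direction and lost the call, and 19 changed sign, none of them in a gene called in either fit. With the length correction the log2 fold change became 0.44 for Rpl22l1, 0.39 for Rpl32, 0.37 for Rps14, 0.33 for Rps27l and 0.36 for Rps29. That of Rpl36al became -0.068 with library totals alone, -0.016 with the replicate block, -0.053 with the GC correction and -0.040 without WT replicate 1 and KSR23 replicate 3. That of Rps4l became -0.0072 with 5 or more counts in every library and -0.13 in replicates 1 to 3 by either test. Without 1 library the log2 fold change ran from -0.32 to 0.044 for Rpl22l1, -0.073 to 0.26 for Rpl36al and -0.37 to 0.44 for Rps4l. For 24 named genes of other lists 177 of 528 lost the call and 0 changed sign. Counting error is small beside the spread between libraries for abundant members, while Rps27 rests on 11 to 73 counts a library. The cause of the dependence on replicates 4 and 5 was not tested.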
